A study of Mus musculus with 40 samples.

Results

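The measurements described here come from 12 of 40 mice of an array study of the hippocampus: the APP transgenic mice whose RNA was hybridised to arrays 17 to 28. They were chosen by array number and strain make-up. The question put to them was which transcripts follow the amount of amyloid-beta 40 (Abeta40) among mice of the same labelled strain make-up. All 12 carried the APP transgene, labelled APP Tg, and were 12 months old. In 6 of them, called DBA-rich here (arrays 17 and 24 to 28), the background was 75% dba2, 9% sjl and 16% b6. In the other 6, called SJL-rich (arrays 18 to 23), it was 69% sjl and 31% b6 with 0% dba2. Background below means these labelled percentages, and the part of allele differences between mice of 1 background in the slopes was not tested. The transgenic line and its promoter are not given in the sources used here, and these 12 mice include no animal without the transgene. Each array was an Illumina mouse Ref-8 BeadChip carrying cRNA of 1 mouse, and 12912 of its 25697 probes passed a detection filter of p at most 0.01 on at least 4 of the 12 arrays. Signal is given as normalized log2 signal, and a slope is the log2 change in signal per 10-fold more Abeta40.

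Abeta40 is a short peptide cut from the amyloid precursor protein by beta- and gamma-secretase, cleared by proteases and by uptake into glia and vessels, and prone to aggregate. The peptide extracted with guanidine hydrochloride (GuHCl), the fraction measured here, is the poorly soluble pool that includes plaque material. Kinesin light chain 1, encoded by Klc1, links cargo to the kinesin motor on axonal microtubules, and the series' design text singles it out as a transcript whose signal correlated with Abeta40 over all transgenic mice.

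Abeta40 spanned a limited range within each background, and the ranges of the backgrounds did not overlap. The log10 level was 3.86 at the lowest, 4.15 at the median and 4.60 at the highest in DBA-rich mice, a 5.51-fold range. In SJL-rich mice it was 4.62, 4.93 and 5.49, a 7.43-fold range. The highest DBA-rich mouse, on array 26, lay just below the lowest SJL-rich mouse, on array 19. The means were 4.16 ± 0.28 and 4.99 ± 0.30 (SD, n = 6 each), a 6.64-fold difference on the linear scale (two-sided exact permutation test, 924 splits, p = 0.00216). A model without background therefore reads strain and Abeta40 together, and every slope below is within background unless stated.

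Between 46.4% and 50.0% of probes were detected per array, and the number of arrays limits the precision. The leading principal component (34.1% of variance) parted the backgrounds, from -19.4 to -14.9 in DBA-rich and from 14.5 to 19.6 in SJL-rich mice. The next one (15.0%) was highest on arrays 28, 18 and 23. Hippocampal markers were detected on all 12 arrays, among them Prox1 and C1ql2 of the dentate gyrus, Wfs1 and Fibcd1 of CA1 and Camk2a of excitatory neurons. Choroid plexus genes were also present, at levels that differed widely between arrays. Ttr, the transthyretin gene and a choroid plexus marker, read 11.57 on array 28, 11.82 on array 18 and 12.84 on array 23. It read 14.75 to 15.45 on the other 9 arrays, and the cause was not tested.

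No transcript was called on Abeta40 within background. Limma called 0 of 12912 probes (0%), the smallest adjusted p was 0.486, and 514 probes (3.98%) had an unadjusted p under 0.05, where 5% of the probes would be 645.6. Of the 514, 239 had positive and 275 negative slopes (1.85% and 2.13%). The median slope over all tested probes was -0.01, and 90% of slopes lay between -0.33 and 0.35. For the median probe the 95% interval reached 0.36 to each side, which shows the precision that 12 mice gave before adjustment for the number of probes. The smallest p belonged to a probe without a gene symbol, ILMN_2648548, with a slope of -0.96 ± 0.15 (SE, unadjusted p = 3.76e-05) and the same slope of -0.96 in each background. It was detected on 6 of the 12 arrays, and in 12 other mice of the study its slope was 0.36 (unadjusted p = 0.129).

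The genes with the largest positive t values had slopes from 0.39 to 1.65. Sln encodes sarcolipin, a small regulator of the calcium pump SERCA known from muscle. Its signal was 6.07 at the lowest, 6.76 at the median and 7.21 at the highest in DBA-rich mice and 5.76, 6.61 and 7.90 in SJL-rich mice. The groups overlapped; within each, the mouse with the most Abeta40 had the highest signal. The slope was 1.65 ± 0.39 (SE, 3.13-fold per 10-fold Abeta40, unadjusted p = 0.00125, adjusted p = 0.998, limma), 1.57 in DBA-rich and 1.71 in SJL-rich mice. Without the SJL-rich mouse on array 22, which had the most Abeta40, it was 1.15.

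Pafah1b1, which encodes the dynein regulator LIS1, covered a narrow range. Its signal ran from 7.67 to 7.97 in DBA-rich and from 7.66 to 8.02 in SJL-rich mice, highest in each background on the array with the most Abeta40, and its slope was 0.39 ± 0.09 (SE). Both Rdh1 and Aldh1a1, enzymes of retinoid oxidation, had positive slopes, of 0.88 and 0.93. Aldh1a1 stood apart on array 17, at 5.22, and on array 19, at 4.80, the mice with the second lowest and the lowest Abeta40 of their backgrounds, and without array 19 its slope was 0.61. The others were Slc9a9 (0.70), an endosomal sodium-proton exchanger, Srpk3 (0.70), a kinase of splicing factors, Alkbh5 (0.63), an RNA demethylase, Mbip (0.55), Rgl2 (0.52), an activator of Ral GTPases, and Nup98 (0.43), a nuclear pore component.

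The genes with the largest negative t values had slopes from -0.83 to -0.40. Ddx50, an RNA helicase gene, read 5.20 to 5.84 in DBA-rich and 5.23 to 5.91 in SJL-rich mice, lowest in each on the array with the most Abeta40. Its slope was -0.72 ± 0.13 (SE, unadjusted p = 0.000181, adjusted p = 0.998, limma). Acp7, an acid phosphatase gene, had a slope of -0.83, and Vrk2, a serine-threonine kinase gene, one of -0.81. Xrcc3, a DNA recombination repair gene that neighbours Klc1, had a slope of -0.71, and without array 19 one of -0.52. The rest were Nup54 (-0.68), another nuclear pore gene, Lrrc6 (-0.61), needed to assemble the dynein arms of cilia, Smim19 (-0.59, and -0.39 without array 22), Fjx1 (-0.42), Rnf34 (-0.42), a ubiquitin ligase gene, and Esyt2 (-0.40), a tether between the endoplasmic reticulum and the plasma membrane. The adjusted p of each of these 20 genes was 0.998 (limma), and all 20 kept their sign whichever mouse was left out. Since they were picked for large t in these same mice, kept signs were likely beforehand and are not evidence for the slopes. Mbip, Rdh1, Aldh1a1, Ddx50, Acp7 and Vrk2 were dim, detected on 5 to 10 of the 12 arrays, and the other 14 were detected on all 12.

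**Figure D1:**
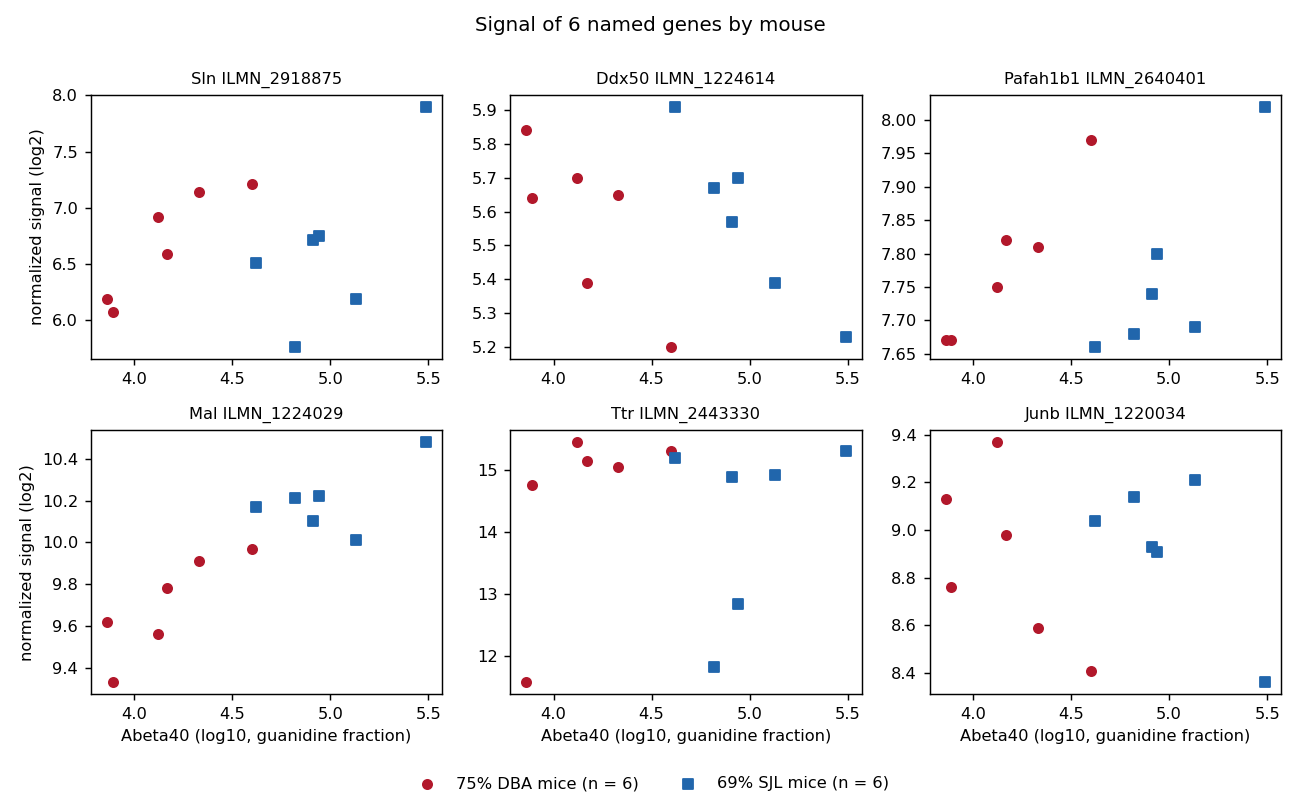
Normalized log2 signal (vertical axes) against log10 Abeta40 (horizontal axes) of 6 named genes, 1 point per mouse, circles for DBA-rich and squares for SJL-rich mice. Sln, Pafah1b1 and Mal lean upwards within each background and Ddx50 and Junb downwards, while in the Ttr panel 3 mice at 11.57 to 12.84 lie below the others.

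Within DBA-rich mice alone, limma called 0 probes (0%), with 681 (5.27%) at an unadjusted p under 0.05 and a smallest adjusted p of 0.895. Of the genes with the largest t there, Erdr1 had a slope of -3.11, and of -2.06 without array 26. Its signal was 7.11 on array 26 and 8.30 on array 27, the mice with the most Abeta40, and 8.90 to 9.61 on the other 4 arrays. Il17d, a cytokine gene, had a slope of -1.22, Ulk4 one of -1.13 (-0.69 without array 26), Mcrs1 one of -1.02 and Gch1, the first enzyme of tetrahydrobiopterin synthesis, one of -0.85. Another Il17d probe, ILMN_2792502, read 6.72 on array 17, 6.96 on array 28 and 4.41 to 4.52 in the other DBA-rich mice. In SJL-rich mice that probe read 7.71 to 8.13. On the positive side stood Padi2, a protein-citrullinating enzyme (1.35), Slc25a47 (1.18), Cd2bp2 (1.08), and again Sln and Slc9a9. Signal in DBA-rich mice was low at Cd2bp2 (4.80 to 5.68), Mcrs1 (5.00 to 5.84), Ulk4 (4.99 to 5.97) and the first Il17d probe (5.13 to 6.07).

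Within SJL-rich mice alone, limma also called 0 probes (0%), with 274 (2.12%) at an unadjusted p under 0.05 and a smallest adjusted p of 1. Array 22, the mouse with the most Abeta40, stood apart at Lpcat2 and Zfp706. Lpcat2, a phospholipid-remodelling acyltransferase, read 6.50 there and 5.12 to 5.41 on the other 5 arrays, giving a slope of 1.52, and of 0.42 without that array. Zfp706 read 5.64 there and 4.37 to 4.66 on the others, giving 1.46, and 0.56 without it. Ypel5 (1.19), Pex5l (1.17) and the endothelial adhesion gene Pecam1 (0.90) were the other positive genes, and Depp1 (-1.84), Vrk2 (-1.12), Tedc1 (-1.10), Fgf7 (-0.86) and Polr3e (-0.75) the negative ones. Of these 10 genes, Pecam1 and Polr3e were detected on all 12 arrays and the others on 4 to 9. Detection was counted over both backgrounds. In DBA-rich mice Zfp706 read 6.22 to 6.58 and Pex5l 6.27 to 6.83, against 4.86 to 5.78 for Pex5l in SJL-rich mice. The SJL-rich slopes of Zfp706 and Pex5l thus rest largely on dim values. Ypel5 and Fgf7 went the other way, with means of 4.82 and 5.05 in DBA-rich and 5.34 and 5.54 in SJL-rich mice.

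The slopes of the backgrounds differed at 0 probes by limma's interaction term (0%), with 348 (2.70%) at an unadjusted p under 0.05. Padi2 had the largest positive t, with a slope of 1.35 in DBA-rich mice and -1.65 in SJL-rich mice (difference 3.01, unadjusted p = 0.000867, adjusted p = 0.998, limma). In SJL-rich mice it read 5.44 on array 22 and 6.68 to 7.37 elsewhere, and without array 22 the difference was 1.38. Fut10, Selenbp2 and Fancc followed on that side, and Pecam1, Rnf166, Pex5l and Wdr5 on the other. Over all 12912 probes the slopes of the backgrounds had the same sign at 53.9% and a Pearson correlation of 0.14 across probes, which are not independent and share arrays. In all, 19 probes had an unadjusted p under 0.05 in both backgrounds, which is 2.79% of the DBA-rich list, where 2.12% of all tested probes had such a p in SJL-rich mice, and 6.93% of the SJL-rich list, where 5.27% had one in DBA-rich mice. Of the 19, 15 ran in the same direction, among them Sln and Ddx50.

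Klc1 signal followed background at most of its probes. At those with the largest background differences, the slope on Abeta40 was set by 1 mouse. Probe ILMN_2605756, on which the background difference was largest, read 8.44, 8.67, 8.91, 11.68, 8.82 and 8.85 on arrays 17 and 24 to 28 of the DBA-rich mice. In SJL-rich mice it read from 12.30 to 12.58. The mouse on array 26, with the highest Abeta40 of its group, stood apart from the other 5 DBA-rich mice and lay 80.9% of the way from their mean to the SJL-rich mean. The slope was 1.62 ± 0.73 (SE) within background (exact permutation p = 0.0522), 3.50 in DBA-rich mice (exact permutation p = 0.0361) and -0.04 in SJL-rich mice (exact permutation p = 0.764). Without array 26 it was 0.43 in DBA-rich mice (exact permutation p = 0.475, 5 mice) and 0.08 within background (exact permutation p = 0.646).

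The Klc1 probes ILMN_2671411 and ILMN_3116826 gave the same picture at smaller size. ILMN_2671411 read 12.48 on array 26 and 11.46 to 11.57 in the other DBA-rich mice, against 12.82 to 13.23 in SJL-rich mice. ILMN_3116826 read 10.44 on array 26 and 9.33 to 9.71 in the others, against 10.83 to 11.23. Their slopes in DBA-rich mice, 1.09 and 1.02, became 0.05 and 0.11 without array 26, and in SJL-rich mice both were 0.01. A further probe, ILMN_3042059, read 9.13 on array 26 and 8.94 on array 27, both above the other 4 at 8.55 to 8.72. Its within-background slope was 0.39 (exact permutation p = 0.0201) and 0.23 without array 26 (exact permutation p = 0.13). In DBA-rich mice its slope was 0.65 (exact permutation p = 0.0597) and 0.41 without array 26 (exact permutation p = 0.408), so more of it remained than at the probes above. ILMN_3163020 overlapped between the backgrounds, at 9.36 to 9.74 and 9.28 to 9.69, and had a slope of -0.04. The exact tests that kept array 26 were among 36, 3 for each of 12 probes. Those without array 26 came on top of these, and none was adjusted. The design text chose Klc1 on mice that include these 12, so these slopes are not independent evidence.

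**Figure D2:**
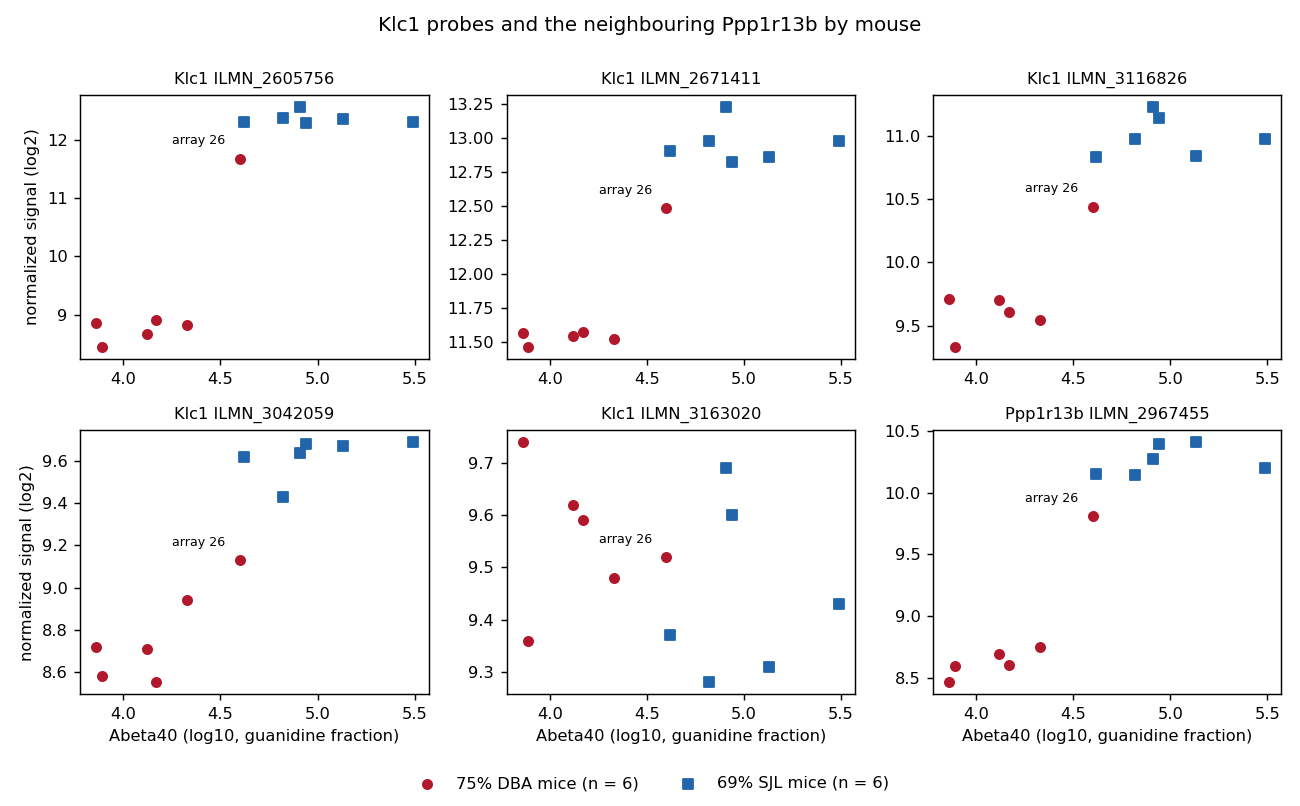
Normalized log2 signal (vertical axes) against log10 Abeta40 (horizontal axes) of 5 Klc1 probes and 1 probe of Ppp1r13b, 1 point per mouse, circles for DBA-rich and squares for SJL-rich mice. At 3 Klc1 probes and at Ppp1r13b the mouse on array 26 stands above the other 5 DBA-rich mice. Among those 5 mice the slopes of the 3 Klc1 probes run from 0.05 to 0.43.

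The intermediate level of array 26 was seen at some other chromosome 12 genes. Ppp1r13b, an apoptosis-related gene and the third tested gene beyond Klc1 in RefSeq order (GRCm38.p6), read 9.81 on array 26, against 8.46 to 8.75 in the other DBA-rich mice and 10.14 to 10.41 in SJL-rich mice. Each mouse was placed between the backgrounds at the probes that differed by at least 1 log2 unit when that mouse was left out. Array 26 lay nearer the SJL-rich mean at 35 of 159 such probes (22.0%), and array 28 at 42 of 173 (24.3%). On chromosome 12 array 26 did so at 7 of 10 probes, those of Klc1 (the 3 probes that prompted the count), Trim9 (2 probes), Cpsf2 and Ppp1r13b, and on chromosome 6 at 5 of 8. Trim9 was at a similar level on arrays 27 and 28, while Cpsf2 read 5.96 on array 26 against 4.87 to 5.16 in the other DBA-rich mice. In the other 11 mice 0 to 3 chromosome 12 probes lay nearer the other background. Over all chromosomes every mouse had some such probes, from 6.45% on array 21 to 24.3% on array 28. The intermediate level of array 26 was not shared by all neighbours of Klc1. On a scale from 0 at the mean of the other DBA-rich mice to 1 at the SJL-rich mean, array 26 lay at 0.256 at Coa8, the tested gene next to Klc1 on the other side (background difference adjusted p = 0.00714, limma). It lay at 0.319 at Mark3, 0.0023 at Ckb, 0.0919 at Amn and 0.032 at Adssl1, and near the middle at Trmt61a (0.523) and Siva1 (0.561), all of which were called between the backgrounds. Xrcc3 and Zfyve21, between Klc1 and Ppp1r13b, were not. Placement was computed after the Klc1 values were seen, and the part of strain make-up at this locus in the Klc1 slope was not tested.

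Leaving out the background term changed the result for the whole array. Limma then called 161 probes on Abeta40 (1.25%), 85 with positive and 76 with negative slopes. Of these, 145 (90.1%) were also called between the backgrounds in a fit without Abeta40, against 7.53% of all tested probes, and at all 161 the signal was higher in SJL-rich mice where the slope was positive and lower there where it was negative. The median size of their slopes was 0.64 without the term and 0.30 with it. Within background 154 kept their sign (95.7%), against 63.3% of all tested probes. There 42 (26.1%) had an unadjusted p under 0.05 (limma), against 3.98% of all. The 161 were picked on these same mice by slopes that include the within-background part, so neither share is independent evidence. As the Abeta40 ranges do not overlap, probes called without the term were also likely beforehand to differ between the backgrounds in the matching direction. Rgl2 had slopes of 0.55 without the term and 0.52 with it, and the myelin gene Mal 0.58 and 0.50. The slope of Nat8f4 went from 1.91 to 0.50 and that of Ppp1r13b from 1.47 to 0.77. The count of 161 ran from 44 without array 17 to 289 without array 22, and it passed 1.5 times in either direction also without arrays 21, 23, 24 or 25, at 74, 101, 76 and 83.

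**Figure D3:**
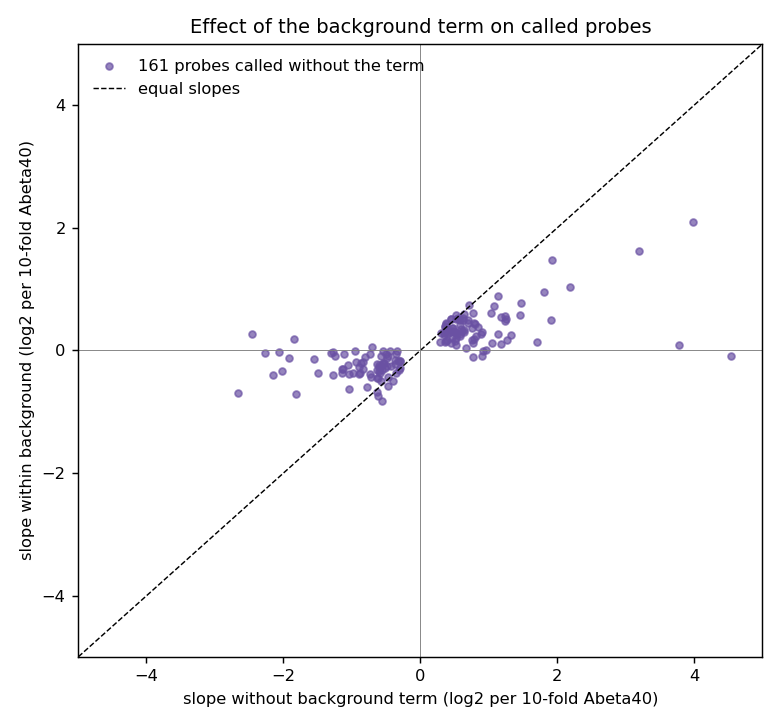
Slope within background (vertical axis) against slope without the background term (horizontal axis), both in log2 per 10-fold Abeta40, for the 161 probes called without the term, 1 point per probe. Most points lie between the dashed line of equal slopes and zero, and the median size falls from 0.64 to 0.30.

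At equal Abeta40, limma called 92 probes (0.713%) between the backgrounds, 43 higher and 49 lower in DBA-rich mice. Since the Abeta40 ranges do not overlap, this comparison extrapolates each group's line. It was 44 without array 26, 46 without array 27, 48 without array 21, 52 without array 22 and 58 without array 23.

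In bulk tissue such as this, fewer cells of a type and less RNA per cell cannot be told apart. Genes that make and clear Abeta were examined as lists, each gene by its brightest tested probe; 228 of 307 genes in 20 lists were measured, and 0 were called (0% of all tested probes). App, by a probe annotated to the mouse gene, read 12.84 to 12.92 in DBA-rich and 12.77 to 12.92 in SJL-rich mice and had a slope of 0.04 ± 0.08 (SE). Prnp, the prion protein gene, had a slope of -0.09. Of 16 genes of the precursor family and secretases 10 had slopes above 0, with a median of 0.03 (all tested probes: 48.1% above 0, median -0.01). Psen2, a presenilin of gamma-secretase, had -0.44 (unadjusted p = 0.0247; -0.28 without array 26), and Bace1, the beta-secretase, 0.04. Of 9 degradation and clearance genes 7 had slopes above 0, with a median of 0.17. Ide, insulin-degrading enzyme, read 8.62 to 9.03 in DBA-rich mice and 8.88 to 9.91 in SJL-rich mice, highest in each on the array with the most Abeta40. Its slope was 0.73 ± 0.23 (SE, unadjusted p = 0.00836), and that of Abca7, a lipid transporter, 0.39 (unadjusted p = 0.0271). Apoe, with -0.07, and Clu, with 0.21, are the brain's main apolipoprotein genes.

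Microglial and astrocyte genes had slopes on both sides of 0. Of 20 plaque-associated microglial genes 10 were above 0, with a median of 0.03, among them the receptor gene Trem2 at -0.14 and its adaptor Tyrobp at 0.14; Cd63, a lysosomal membrane gene, had the largest t, at 0.37 (unadjusted p = 0.073). Homeostatic microglial genes had 5 of 11 above 0, led by Fcrls at 0.62 (unadjusted p = 0.0857; 0.29 without array 22), with P2ry12 at 0.00 and Cx3cr1 at 0.02. Complement and Fc receptor genes had 1 of 7 above 0, with C1qa at -0.07 and Fcgr2b at -0.52 (-0.27 without array 28). Their median was -0.12, from -0.61 in DBA-rich to 0.32 in SJL-rich mice, and without array 28 it was 0.21 with 5 of 7 above 0. Reactive astrocyte genes had 6 of 10 above 0, with Gfap at 0.10 and Aspg at -0.46 (-0.22 without array 26), and homeostatic astrocyte genes 3 of 7, with the glutamate transporter gene Slc1a2 at -0.25. No member of these 5 lists had an unadjusted p under 0.05.

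Oligodendrocyte and myelin genes had slopes above 0 at 12 of 12 members, with a median of 0.33. Mal, a myelin proteolipid gene, read 9.33 at the lowest, 9.70 at the median and 9.97 at the highest in DBA-rich mice and 10.01, 10.19 and 10.48 in SJL-rich mice. The groups did not overlap, and the mice with the most Abeta40 were highest in each. Its slope was 0.50 ± 0.16 (SE, unadjusted p = 0.00863, adjusted p = 0.998, limma). Trf (0.44), Cldn11 (0.39) and Mobp (0.37) also had an unadjusted p under 0.05, and Mbp, myelin basic protein, had 0.28 (exact permutation p = 0.049, unadjusted). The median was 0.51 in DBA-rich and 0.17 in SJL-rich mice, and it ran from 0.26 without array 17 to 0.40 without array 19. The list's summed signal ran from 40900 to 55300 in DBA-rich and from 53700 to 64400 in SJL-rich mice.

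Choroid plexus genes had the steepest slopes of the lists, and 3 mice read far below the other 9 at them. The slope without all 3 was not tested. All 10 measured members were above 0, from 1.27 (Calml4) to 2.60 (Aqp1), with a median of 2.20, and 0 had an unadjusted p under 0.05. The summed signal was 3600 on array 28, 4240 on array 18 and 8280 on array 23, against 31100 to 52300 on the other 9. Array 28 had the lowest Abeta40 of its group, array 18 the second lowest of its own, and array 23 the fourth of 6. The slope of Ttr was 2.32 ± 1.31 (SE, exact permutation p = 0.152). The median ran from 1.22 without array 28 to 3.53 without array 19, and in the earlier mice it was -0.90.

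Activity-dependent early genes had 3 of 11 slopes above 0, with a median of -0.45. Arc, a synaptic immediate early gene, read 8.65 to 10.16 in DBA-rich and 8.97 to 10.25 in SJL-rich mice, lowest in each on the array with the most Abeta40. Its slope was -1.15 (unadjusted p = 0.0204), that of Junb, a transcription factor gene, -0.77 (unadjusted p = 0.0109) and that of Fos -0.91 (unadjusted p = 0.142), while Egr1 had 0.04 and Bdnf 0.23. The median was -0.16 without array 26. Interferon and antigen presentation genes had 1 of 12 above 0, with a median of -0.57, but array 28 set it: H2-Eb1, a class II gene, read 9.37 there and 5.19 to 5.84 in the other DBA-rich mice, and Ifit3 read 10.40 there and 8.55 to 8.98 in the others. Without array 28 the median was 0.08 with 10 of 12 above 0.

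Neuronal, regional, vascular and metabolic lists lay near 0. Excitatory neuron genes had a median of 0.01, interneuron genes -0.12, hippocampal subfield genes -0.01, kinesin and transport genes 0.07, thalamus genes 0.19, vessel and blood genes 0.12, heat shock genes 0.08, mitochondrial respiration genes -0.03 and clock genes 0.14. With 1 mouse left out these 9 medians stayed between -0.13 and 0.25, and 5 of them took either sign. In the transport list Kif5a and Kif5c, the neuronal kinesin heavy chains, had slopes of 0.07 and 0.06, and Mapt, encoding tau, had 0.07. Zic1, in the thalamus list, had 1.11 (unadjusted p = 0.0364) and Pecam1 0.42 (unadjusted p = 0.0428), the latter 0.90 in SJL-rich mice, -0.12 in DBA-rich mice and 0.10 within background without array 22. No other member of these 9 lists had an unadjusted p under 0.05.

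**Figure D4:**
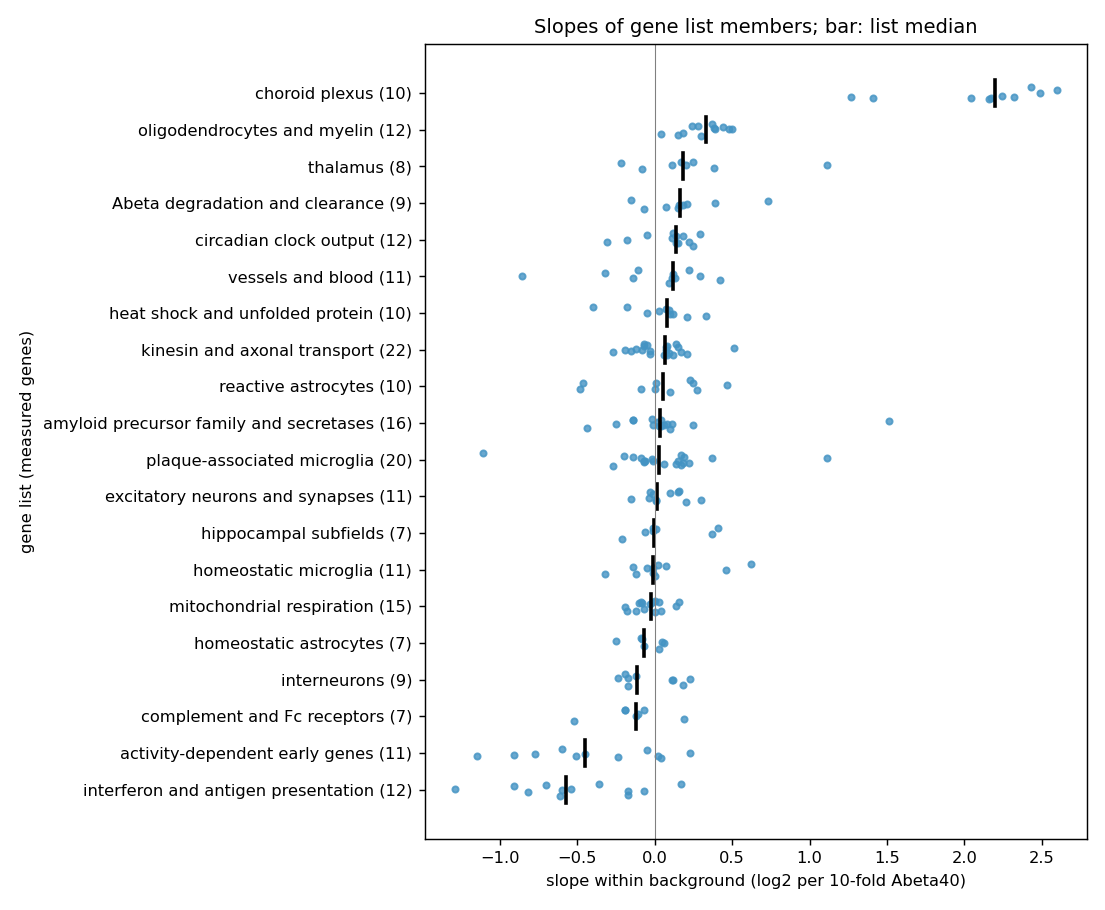
Slopes within background (horizontal axis, log2 per 10-fold Abeta40) of the measured members of 20 gene lists (vertical axis, number of measured genes in brackets), 1 point per gene with the list median as a bar. Choroid plexus genes lie at 1.27 to 2.60 and myelin genes at 0.04 to 0.50, all above 0, and most other list medians lie near 0.

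The same slope was then read in 12 other transgenic mice of 12 months that share no array with these: 6 with 62.5% b6 and 37.5% sjl and 6 with 84% sjl and 16% b6, without dba2, on arrays 1 to 16. Their log10 Abeta40 ran from 4.06 to 5.05 and from 4.32 to 5.16. Limma called 0 probes there (0%), with 605 (4.69%) at an unadjusted p under 0.05, and 0 probes differed in slope between the array sets (0%), with 616 (4.77%) at an unadjusted p under 0.05. Of the 20 leading genes, 13 had the same sign in the earlier mice, and Vrk2 was the 1 with an unadjusted p under 0.05 there (limma). Its slope in them was -0.54 (unadjusted p = 0.0136, limma). Of the 514 probes, 274 (53.3%) had the same sign, against 48.8% of all tested probes. The slopes of the array sets had a Pearson correlation of -0.08 across 12912 probes. Ide had -0.45 in the earlier mice (difference between sets, unadjusted p = 0.00443, adjusted p = 0.984), and oligodendrocyte genes had a median of 0.22.

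**Figure D5:**
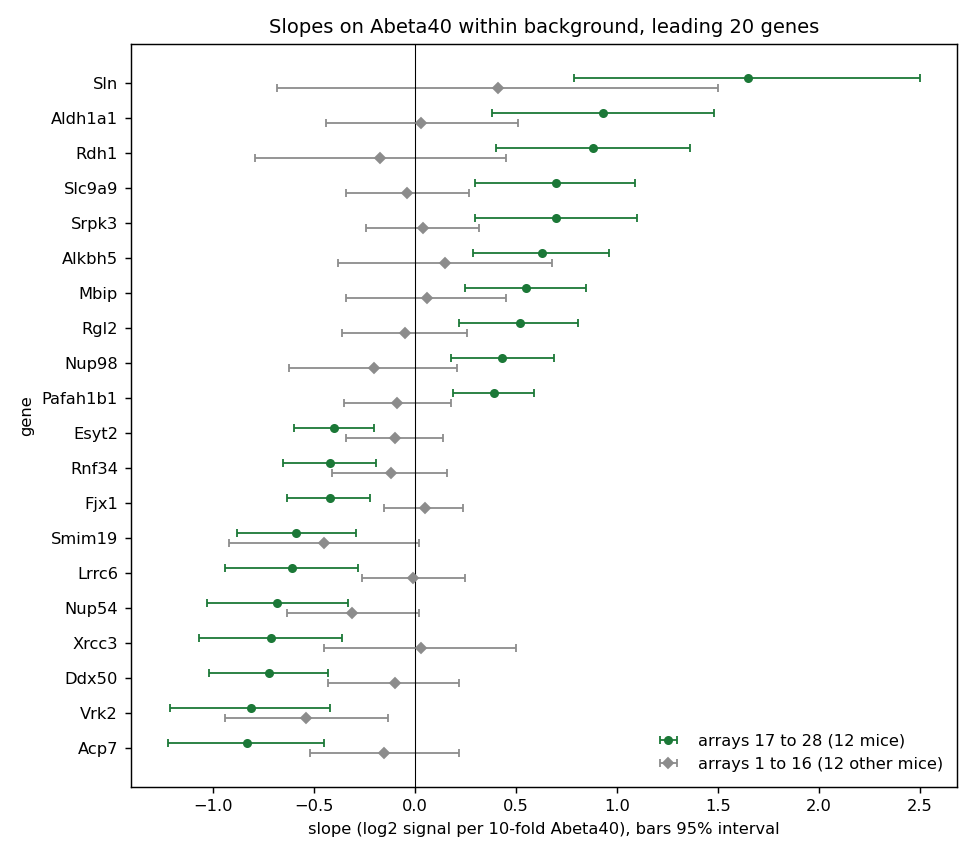
Slopes within background (horizontal axis, log2 per 10-fold Abeta40, bars 95% intervals) of the 20 leading genes (vertical axis), circles for the 12 mice on arrays 17 to 28 and diamonds for the 12 mice on arrays 1 to 16. The genes were chosen on the circles, and the diamonds share the sign for 13 of 20, with 1 interval, that of Vrk2, clear of 0.

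An unadjusted p under 0.05 (limma) in both array sets was seen for 35 probes. They are 6.81% of the later list, where 4.69% of all tested probes had such a p in the earlier mice. They are 5.79% of the earlier list, where 3.98% of all had one in the later mice. Of the 35, 18 had the same sign, which is 3.50% of the later list and 2.98% of the earlier one. Over all tested probes 48.8% had the same sign. These 18 include Arc (-1.15 and -0.69), Dusp6, a phosphatase of the ERK pathway (-0.47 and -0.44), Fdps, an enzyme of isoprenoid and cholesterol synthesis (-0.56 and -0.24), Slc39a1, a zinc importer (-0.57 and -0.55), Rab13 (-0.51 and -0.35), Hdc, the histamine-forming enzyme (0.88 and 0.80), and Anln, a scaffold protein gene expressed by oligodendrocytes (0.51 and 0.46). They were picked for passing in both sets, and none was called in either.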

How the data were processed

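Hippocampal RNA of 40 mice was measured on 1-colour arrays, each holding a single mouse, as the design text says. The deposited table of non-normalized values holds, per the file headers, signal intensity per probe, and its values go below 0, as after background subtraction. Its detection score is named a p-value per the file headers but is near 1 for bright probes, and was read as 1 minus the p. The authors' second deposited table of intensity values is, on these 12 arrays, a straight line of the first (slopes 0.838 to 1.15), and served as an alternative. Scanner software and the scaling step are not given in the sources used here.

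All 40 arrays were normalized with neqc of limma 3.58.1 (R 4.3.3, statmod 1.5.0) at an offset of 16. Probes detected at p at most 0.01 on at least 4 of the 12 arrays were tested, 12912 of 25697. Of these, 10930 were detected on all 12. Gene symbols came from the platform annotation and Entrez numbers (23978 probes with 1 symbol, 1719 with none), and chromosome and gene order from RefSeq GRCm38.p6. Slopes on log10 Abeta40 were fitted with lmFit and eBayes with background as a factor, per background, and as an interaction, with Benjamini-Hochberg adjustment over all tested probes at 0.05. Single probes were also tested with two-sided exact permutations of Abeta40 within background. The fits were tested on simulated data.

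The named genes were the 10 largest each way by t within background, 5 each way per group, 4 each way for the slope difference, every Klc1 probe, App, Prnp, Ttr, Gfap, Trem2, Apoe, Mbp and the leading member of each list. The other list members, the probes nominal in both backgrounds or array sets, and the chromosome 12 genes were picked with their values in view. The members and lists were chosen with earlier results of these data known. Replicates are separate mice, and replicate numbers only name arrays. Alternatives covered the table, background correction, normalization set, probe filter, variance model, runs of 8 arrays, Abeta40 ranks, array weights, a Pearson correlation per probe and each mouse left out. Inbred mice entered the normalization only, since the deposited tables disagree on the order of their arrays.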

Additional observations from a re-analysis of the deposited data

Results flagged for a closer look

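Of 150 sets of 6 values, 144 of a named probe in 1 background and 6 of Abeta40, detection or raw signal, 21 (14%) held a mouse whose gap to its nearest neighbour was large for the range of its group. Chance gives this in about 1 in 20 for values not picked beforehand; these probes were picked for steep slopes in the same mice, some measure the same gene, and the share is not to be read against that. The mouse on array 26 stood apart from the other DBA-rich mice as the highest at 3 Klc1 probes, ILMN_2605756 at 11.68, ILMN_2671411 at 12.48 and ILMN_3116826 at 10.44, and as the lowest at Wdr5, at 6.77. The mouse on array 28 was the lowest DBA-rich mouse at Ttr, at 11.57, and Otx2, at 4.80, and the highest at Tap2, at 9.05. Also in DBA-rich mice, array 17 was lowest at Aldh1a1 (5.22) and highest at Atp5b (15.45), and array 24 was highest at Ypel5 (5.58). Atp5b was among the brightest named probes, where a few values, such as 15.25 and 15.31, recurred between mice. Its gaps in both backgrounds are steps between such values.

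Among SJL-rich mice, array 22, with the most Abeta40 of all 12, stood apart at 7 probes. It was the highest at Lpcat2 (6.50) and Zfp706 (5.64) and the lowest at Padi2 (5.44), Fut10 (4.62), Smim19 (10.09), Junb (8.36) and Atp5b (15.10). Array 19, with the least Abeta40 of its group, was the lowest at Aldh1a1 (4.80) and the highest at Xrcc3 (6.36). Array 21 was the highest at Klc1 ILMN_2605756 (12.58) and array 18 the lowest at Klc1 ILMN_3042059 (9.43).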

How the results depend on the processing

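No probe was called on Abeta40 within background in any setting that kept the background term, among them both deposited tables, 3 normalizations, other filters, trend and robust variances, runs of 8 arrays as a block, Abeta40 ranks, array weights and each mouse left out. Without the term limma called 161 and a Pearson correlation per probe 3 at 0.05 and 0 at 0.001. The probes at an unadjusted p under 0.05 ran from 330 without array 26 to 881 without array 19. The runs of 8 were inferred from array numbers, and adding the DBA-rich mouse on array 10 with its array set as a term gives the same slope by construction.

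The background difference at equal Abeta40 went from 92 probes to 51 on probes detected on all 12 arrays and 50 with no filter, with fewer or more probes tested, and from 44 to 96 with 1 mouse left out. The Abeta40 difference between backgrounds ran from -0.91 to -0.721 (log10) with 1 mouse left out. Without the background term the slopes of Fjx1, Smim19, App and Pecam1 turned to 0.15, 0.07, -0.02 and -0.20, and on arrays 17 to 24 alone that of Klc1 ILMN_3163020 turned to 0.06; the cause was not tested. The other 761 of 766 values of 89 named results kept their sign. Many of these results were named for large t in the same mice, which made kept signs likely beforehand. With 1 mouse left out, 13 of 888 values turned sign. Within background these were Klc1 ILMN_3163020 (-0.13 to 0.05) and Gfap (-0.01 to 0.21). In DBA-rich mice it was Klc1 ILMN_3163020 (-0.31 to 0.13). In SJL-rich mice the Klc1 probes ILMN_2671411 (-0.08 to 0.06), ILMN_2605756 (-0.15 to 0.11), ILMN_3163020 (-0.12 to 0.09) and ILMN_3116826 (-0.24 to 0.16) turned.

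No paired analysis was possible because replicate numbers follow accession order and pair no mice. With 6 mice per background the Abeta40 ranges are short, and 6 of the 20 leading genes were not detected on every array.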
